A study of Homo sapiens with 12 samples.

Results

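The proteins of the mitochondrial ribosome were followed at the RNA level in human cells with and without mitochondrial DNA (mtDNA). The members were all probe sets, that is, sets of oligonucleotides that together report the 3′ region of 1 transcript, whose single gene symbol in the platform annotation starts with MRPL (large subunit) or MRPS (small subunit) followed by a number, with pseudogenes left out. This rule found 64 of the 22283 probe sets of the Affymetrix human array used. They stand for 51 genes, 31 of the large subunit (35 probe sets) and 20 of the small subunit (29 probe sets), while the RefSeq table lists 77 protein-coding genes with such a symbol. Of the member genes, 41 had 1 probe set, 8 had 2, MRPL57 had 3 and MRPS12 had 4. Probe sets of the same gene share their target and are not replicates. Counts and medians below take each probe set separately, so genes with several probe sets enter more than once.

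The mitochondrial ribosome translates the few messages encoded by mtDNA, which all specify subunits of the respiratory chain and ATP synthase. Its RNAs come from mtDNA, but every one of its proteins is encoded in the nucleus, made in the cytosol and imported. The small subunit reads the message, and the large subunit forms the peptide bond and releases the nascent protein at the inner membrane. Cells without mtDNA have no ribosomal RNA and no message for this machine, so the question was whether the nuclear genes for its proteins were still expressed at the parental level, and whether both subunits behaved alike.

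The arrays compared rho0 cells, which lack mtDNA, with their rho+ parents in A549 (epithelial, lung adenocarcinoma) and in 143BTK- (osteosarcoma, without thymidine kinase). There were 3 arrays (A, B and C) in each of the 4 groups and 12 in all. The rho0 cells had received ethidium bromide at 50 ng/ml for 3 weeks and were not cloned, so each group is a mixed population. All 4 groups grew in high-glucose medium supplemented with pyruvate (1 mM), uridine (50 µg/ml) and serum (10%), and pyruvate and uridine let cells divide without respiration. No probe set was annotated to a gene of mtDNA, so the loss of mtDNA could not be checked here.

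The measure is the linear MAS5 signal, which the authors quantile-normalized over the 6 arrays of each line, so levels were compared only within a line and within a probe set. Changes are differences of log2 signal, rho0 minus rho+, tested with limma over the 60% of probe sets with the highest mean log2 signal (13370 in each line) with Benjamini-Hochberg adjustment, and called at an adjusted p under 0.05. Replicates of a group correlated with Pearson's r of 0.900 to 0.966 across probe sets. In 143BTK-, rho+ C stood apart, with a median over the members of −0.21 on the log2 scale relative to the mean of the rho+ arrays, against 0.08 for rho+ A and 0.15 for rho+ B. A549 rho+ C also correlated less with its replicates (0.914 and 0.926, against 0.951 between A and B), and 143BTK- rho0 B and C gave the lowest r. The defining markers separated the lines in part: among all probe sets of a line, epithelial KRT8 lay at percentile 98.5 in A549 and 72.9 in 143BTK-, and mesenchymal SPARC at 23.5 and 95.4. KRT18 (99.3 and 99.2) and VIM (99.1 and 99.7) were high in both, and epithelial EPCAM was lower in A549 (10.4 against 54.2). In bulk RNA, fewer cells of a kind and less RNA per cell cannot be told apart.

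Nearly every member passed the signal filter in both lines. The filter kept 60% of all probe sets in each line and is not a detection call, so passing it does not by itself show expression. With a mean signal of at least 100 as the filter, 46 member probe sets were kept in A549 and 50 in 143BTK-. Of the 64 probe sets, 59 were kept in A549 (33 large, 26 small) and 60 in 143BTK- (33 large, 27 small), for 49 genes in each line. MRPL41, a large-subunit protein, and MRPS18C, a small-subunit protein, had no kept probe set, with signals of 2.0 to 7.4 and 1.1 to 14.7 over the 12 arrays. The second probe sets of MRPL20 (0.5 to 10.8) and MRPS11 (2.8 to 17.3) were not kept in either line, and a probe set of MRPS14 (203801_at, 8.3 to 25.3 in A549) was kept in 143BTK- only. For these genes another probe set was kept. Mean rho+ signals of the kept members were 33.8 to 906.7 in A549, and in 143BTK- they were 17.5 to 1507.

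In A549, the rho0 cells had lower signals of MRPL15, MRPL13 and MRPS34 and a higher signal of MRPL42, and no other member passed the test. These were 4 of 59 probe sets (6.78%), where 10.6% of all kept probe sets were called (5.53% higher and 5.07% lower), so the members were called no more often than the array as a whole. The large subunit gave 3 of the 4 calls (3 of 33 probe sets) and the small subunit 1 (1 of 26). Across the members the changes were small: 47 of 59 lay within 1.5-fold, and for 41 the 95% interval excluded both a doubling and a halving.

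MRPL15, counterpart of a bacterial large-subunit protein (uL15m in the structural nomenclature), gave signals of 566.4, 582.2 and 604.4 in A549 rho+ A, B and C and of 279.4, 221.8 and 314.4 in rho0 A, B and C. Every rho0 array lay far below every rho+ array, and the rho+ arrays were close together. The level fell by 1.12 on the log2 scale (SE 0.19, 2.17-fold lower, limma adjusted p = 0.00592). It was called with each A549 array left out in turn (adjusted p 0.00692 to 0.0342).

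MRPL13 (uL13m), also of bacterial ancestry, gave 202.2, 241.7 and 148.9 in the rho+ arrays and 98.8, 108.5 and 110.1 in the rho0 arrays. The groups did not overlap, and the spread was mostly on the rho+ side, where C was lowest. The level fell by 0.87 on the log2 scale (SE 0.23, 1.83-fold lower, limma adjusted p = 0.0386). The call was lost without any A549 array other than rho+ C (adjusted p 0.0670 to 0.165).

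MRPS34, a mitochondria-specific protein at the foot of the small subunit, gave 296.0, 310.4 and 193.6 in rho+ and 138.6, 80.2 and 145.6 in rho0. It had the lowest fitted change of all members, with rho0 B at the bottom and rho+ C closest to the rho0 arrays. The level fell by 1.15 on the log2 scale (SE 0.29, 2.22-fold lower, limma adjusted p = 0.0306). The call was lost without rho0 A, rho0 B, rho+ A or rho+ B (adjusted p 0.0769 to 0.124).

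MRPL42, a mitochondria-specific protein of the large subunit, ran the other way, at 172.4, 212.3 and 196.3 in rho+ and 371.3, 326.2 and 361.6 in rho0. Both groups were tight and well apart. The level rose by 0.87 on the log2 scale (SE 0.19, 1.83-fold higher, limma adjusted p = 0.0173). Without rho0 A, rho+ A or rho+ B the adjusted p was 0.0854, 0.0520 and 0.0531.

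**Figure D1:**
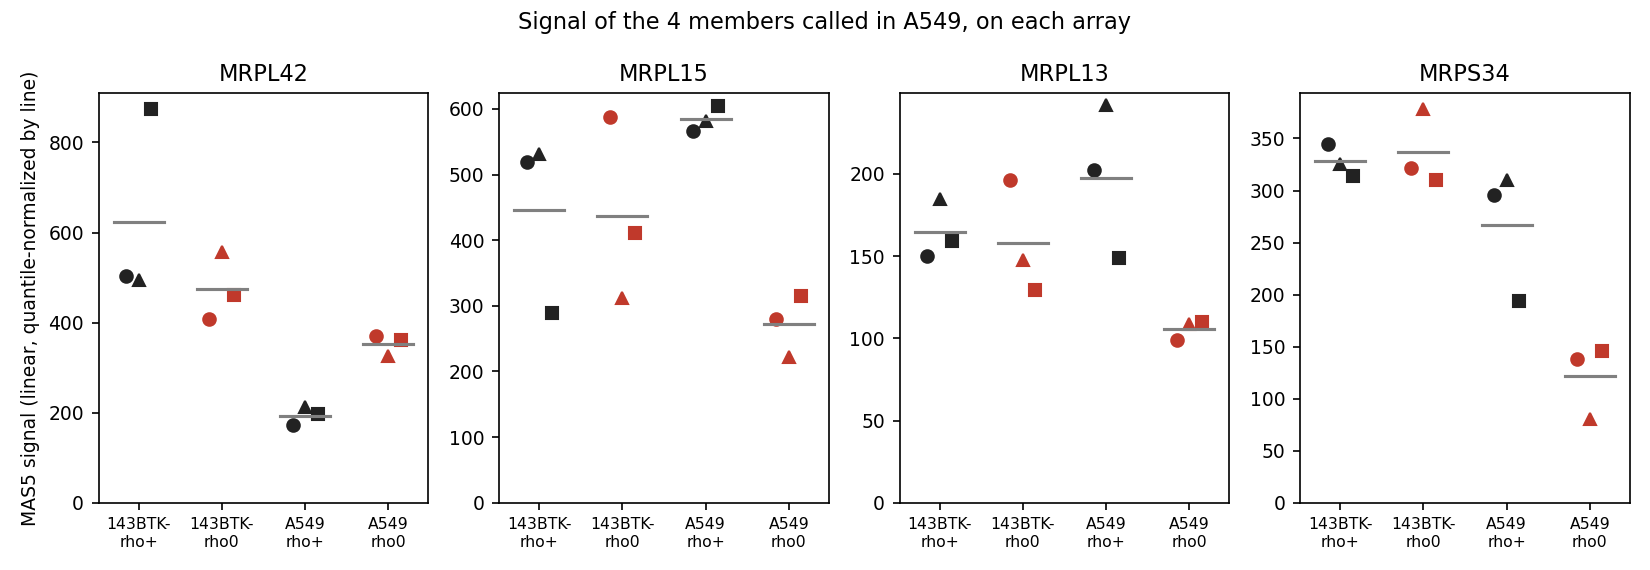
Signals of MRPL42, MRPL15, MRPL13 and MRPS34 on each array (vertical axes, MAS5 signal on a linear scale from 0, normalized by line, so lines are not to be compared) by line and mtDNA state. Circles, triangles and squares are replicates A, B and C and grey bars group means; the groups separate in A549 and overlap in 143BTK-.

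In 143BTK- none of these 4 passed the test, where 0% of all kept probe sets were called. MRPL15 gave 519.6, 530.8 and 288.7 in rho+ and 587.7, 312.4 and 411.3 in rho0 (log2 change −0.03, SE 0.32), with rho+ C the lowest of all. MRPS34 stayed between 310.3 and 378.3 on all 6 arrays (log2 change 0.03, SE 0.20, 95% interval −0.43 to 0.49). For MRPL13 the change was −0.08 (SE 0.25). MRPL42 gave 502.6, 493.7 and 873.7 in rho+ and 407.9, 556.6 and 460.7 in rho0 (log2 change −0.35, SE 0.27), where rho+ C was the high array. The difference between the lines, tested in a fit of all 12 arrays, did not pass for any of the 59 members kept in both (1.86% of all probe sets were called, and at an unadjusted p under 0.05 there were 2 members higher and 6 lower, against 9.58% and 7.82% of all). It came closest to the threshold for MRPL42 (1.22, SE 0.33, limma adjusted p = 0.0696), followed by MRPS34 (−1.19, adjusted p = 0.107), and for MRPL15 it was −1.09 (adjusted p = 0.154). Exact permutation over both lines (two-sided, 400 arrangements, smallest p 0.005) gave 0.035 for MRPL13, 0.06 for MRPS34, 0.07 for MRPL15 and 0.385 for MRPL42, 4 tests of members chosen by their calls.

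The changes of whole chromosomes are set beside these values. MRPL15 and MRPL13 are on chromosome 8 and MRPS34 on chromosome 16, and the median change of all kept probe sets in A549 was −0.26 on chromosome 8 and −0.32 on chromosome 16, against 0.08 on chromosome 12, which holds MRPL42. In 143BTK- the chromosome 16 median was −0.02. When each change was taken relative to its chromosome's median, MRPL15 (−0.85, limma adjusted p = 0.0221) and MRPL42 (0.78, adjusted p = 0.0291) were still called. MRPL13 (−0.61, adjusted p = 0.132) and MRPS34 (−0.83, adjusted p = 0.103) were not. MRPL48 (−0.89, adjusted p = 0.0331) and MRPL23, both on chromosome 11, were added. The A549 median of chromosome 11 was 0.19, so centring moved both further below 0. MRPS28, the remaining kept member on chromosome 8, had a change of 0.08 (SE 0.26). The study looked for copy number changes in these arrays and described the average change as similar from chromosome to chromosome. The part of chromosome copy number in the member changes was not tested here.

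Below the threshold in A549, the large subunit held more members that leaned down than up. MRPL48, a mitochondria-specific protein, gave 169.9, 217.2 and 175.3 in rho+ and 102.6, 107.3 and 136.2 in rho0 (−0.70, SE 0.22, limma adjusted p = 0.0675). MRPL20 (bL20m) gave 336.2, 391.1 and 457.8 against 251.0, 236.7 and 307.8 (−0.57, SE 0.20, adjusted p = 0.0953). MRPL23, which lies at the exit of the peptide tunnel, gave 779.6, 672.7 and 490.3 against 423.6, 427.4 and 427.4 (−0.58, SE 0.20, adjusted p = 0.0914). All 3 had every rho0 array below every rho+ array. The 3 probe sets of MRPL57 differed in size but not in sign, at −0.61 (221995_s_at, adjusted p = 0.134), −0.37 (204387_x_at) and −0.24 (204386_s_at, the brightest). At the upper end, MRPL17 (0.41), MRPL44, which has an RNase III-like fold (0.31), and MRPL35 (0.30) did not pass.

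The small subunit also had members on both sides, with 16 of 26 probe sets below 0, against 22 of 33 in the large subunit. MRPS27, a pentatricopeptide repeat protein, gave 207.4, 211.2 and 498.4 in A549 rho+ and 622.6, 535.5 and 440.1 in rho0 (0.92, SE 0.32, limma adjusted p = 0.0964). It had the highest change of all members, but rho+ C lay among the rho0 arrays, and without that array the change was 1.33 with an adjusted p of 0.00263. MRPS16 (bS16m) showed the same array, with 131.4, 137.1 and 291.3 in rho+ and 348.0, 196.3 and 325.9 in rho0 (0.69, SE 0.34, adjusted p = 0.215, and 0.0243 without rho+ C). MRPS10 (uS10m) gave 102.5, 81.9 and 131.0 in rho+ and 166.2, 268.8 and 131.7 in rho0 (0.81, SE 0.30, adjusted p = 0.112), with no overlap but with rho0 C next to rho+ C. For MRPS31 the brighter probe set gave 0.65 (adjusted p = 0.187) and the other 0.18. So without A549 rho+ C the count of called members was 7, with MRPL23, MRPS16 and MRPS27 added to the 4, while without rho0 A, rho+ A or rho+ B it was 1, MRPL15, without rho0 B 2 and without rho0 C 3.

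On the lower side of the small subunit, MRPS2 (uS2m) had a change of −0.56 (adjusted p = 0.117) and MRPS14 (203800_s_at, uS14m) of −0.54 (adjusted p = 0.123). MRPS12, the protein of the decoding centre (uS12m), had 4 probe sets, all below 0, of which the 2 lowest (−1.05, SE 0.74, and −1.02, SE 0.76) were dim, at 4.1 to 50.2 and 5.5 to 56.4 over the A549 arrays. The bright probe set of MRPS12 (204331_s_at) gave 1141.3, 862.0 and 522.1 in rho+ and 657.6, 505.6 and 778.2 in rho0 (−0.33, SE 0.28). Its groups overlapped. Probe sets disagreed in sign in A549 for MRPS18B (217408_at −0.58, adjusted p = 0.119, and 208907_s_at 0.07) and for MRPS30 (218398_at 0.19 and 222275_at −0.16).

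**Figure D2:**
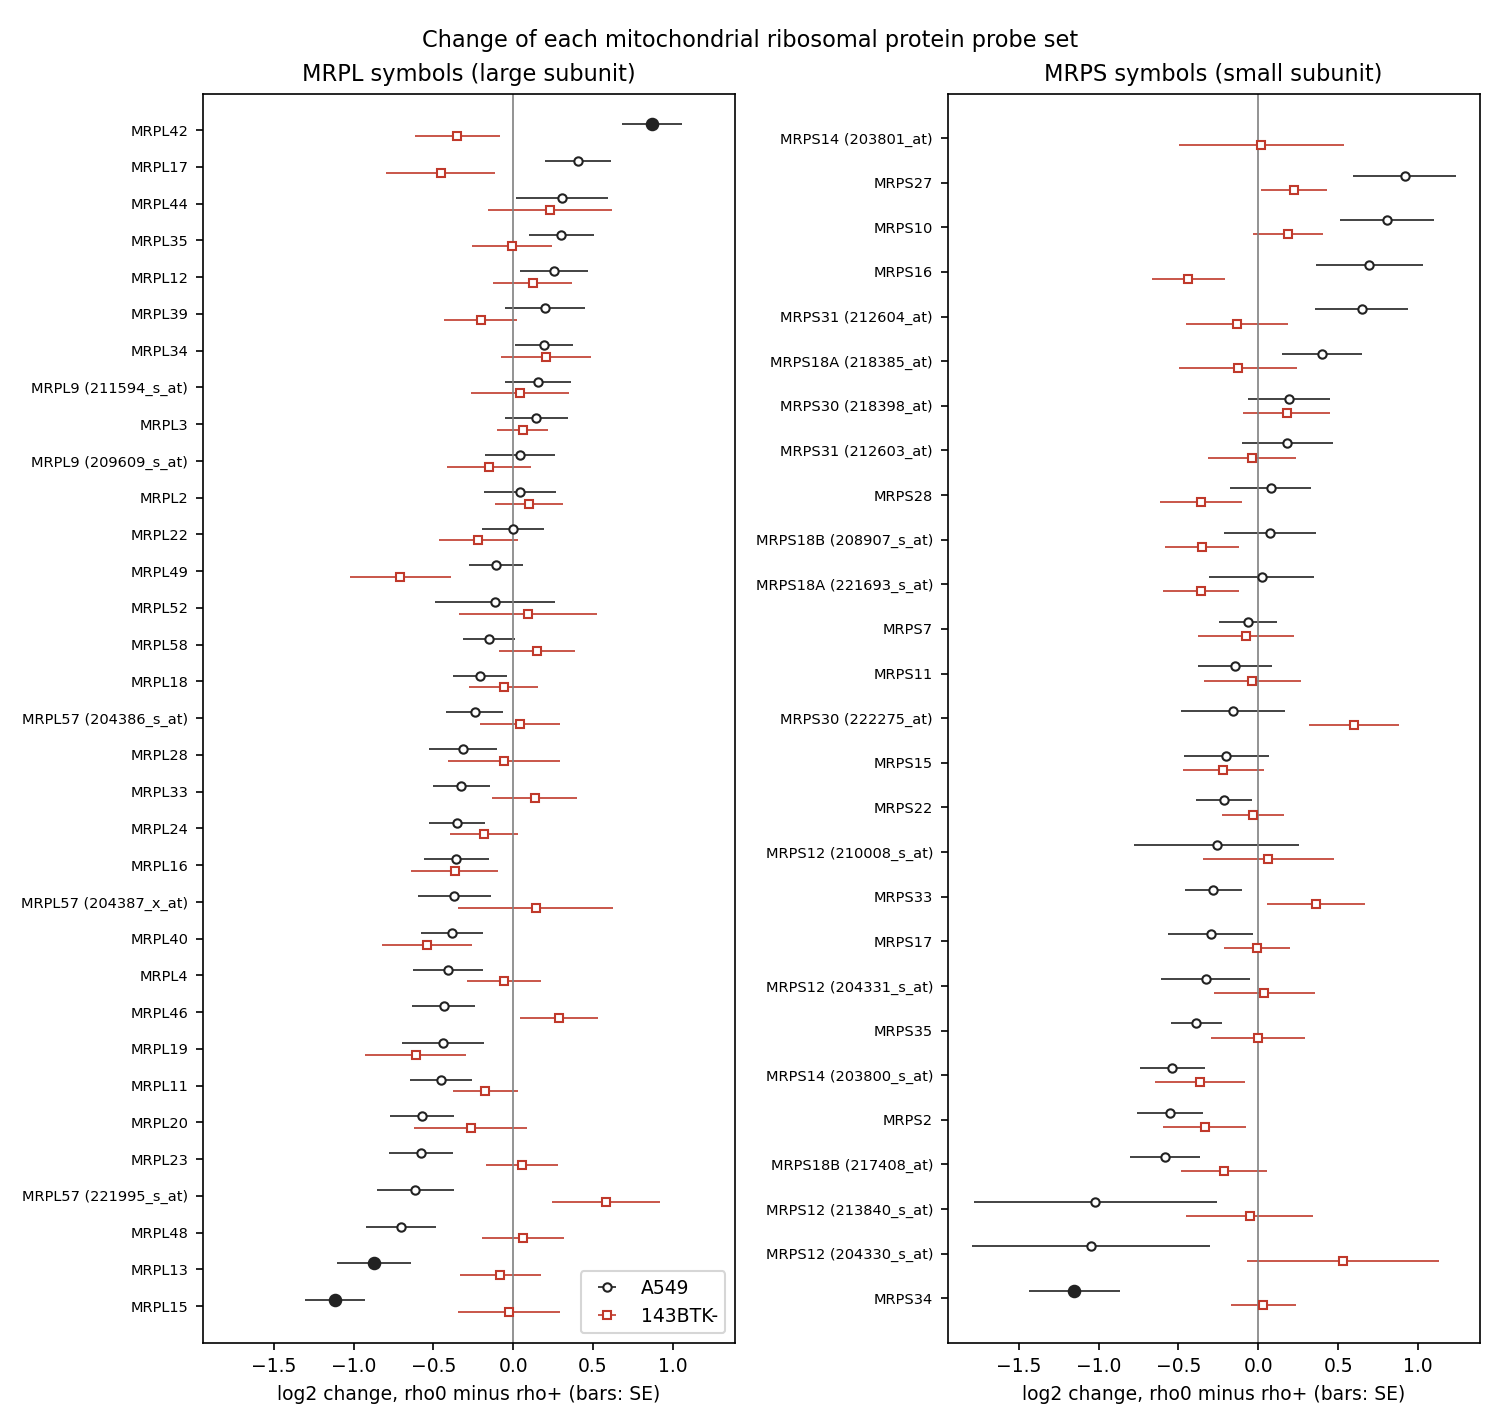
Log2 change, rho0 minus rho+, of each kept member probe set (points, with SE bars) in A549 (black circles) and 143BTK- (red squares), ordered by the A549 change within the large (left) and small subunit (right). Filled points are called at an adjusted p under 0.05, and only MRPL42, MRPL15, MRPL13 and MRPS34 in A549 are filled.

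As a group, the A549 members lay slightly below the array. The change was below 0 for 38 of 59 probe sets, where 50.2% of all kept probe sets were below 0, and the median was −0.21 against −0.003 for all. With 1 probe set a gene, 31 of 49 members were below 0, with a median of −0.20 against −0.03 for all. At an unadjusted p under 0.05 there were 3 members higher and 12 lower, where 13.9% and 13.2% of all probe sets were higher and lower. Every rho0 array lay above every rho+ array for 4 members and below for 19, where the shares of all probe sets were 15.7% and 15.9%. The direction of the members that did not overlap was therefore unequal while their number, 23, was 39.0% of the members against 31.6% of all probe sets.

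The medians of the subunits lay close together. In A549 the median change was −0.24 for the large subunit (22 of 33 below 0, quartiles −0.44 and 0.15) and −0.18 for the small subunit (16 of 26 below 0, quartiles −0.37 and 0.16). This order depended on naming: MRPS30 and MRPS18A carry small-subunit symbols but sit in the large subunit in structures, and with these moved the medians were −0.16 for the large and −0.24 for the small subunit. Proteins with a bacterial relative had a median of −0.28 (34 probe sets) and mitochondria-specific ones −0.16 (21 probe sets), with 2 calls in each class.

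Array by array, the large-subunit median relative to the mean of the rho+ arrays was −0.28, −0.19 and −0.21 in A549 rho0 A, B and C and −0.12, 0.04 and 0.06 in rho+ A, B and C, so the groups did not overlap. For the small subunit it was −0.13, −0.23 and 0.02 in rho0 and −0.13, −0.04 and 0.15 in rho+, which overlapped. These array medians follow the symbols, with MRPS30 and MRPS18A in the small subunit, and were not computed by structure. In 143BTK- both subunits overlapped, the large at 0.19, −0.11 and −0.11 in rho0 and 0.09, 0.17 and −0.28 in rho+.

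**Figure D3:**
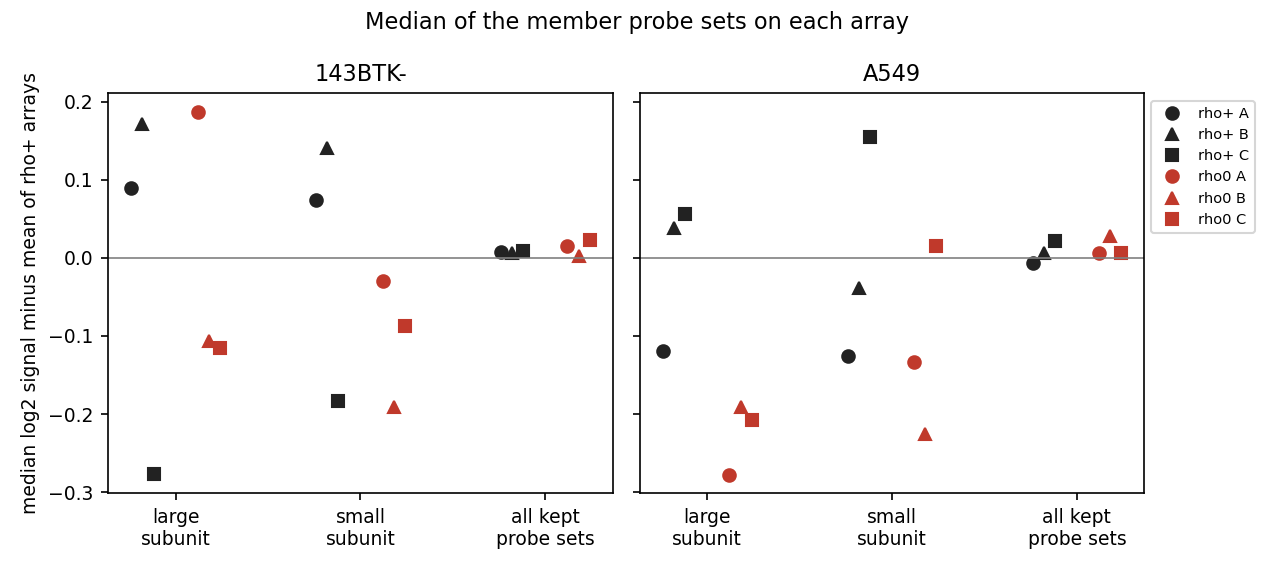
Median over the probe sets of each subunit, and over all kept probe sets, of the log2 signal minus the mean of the rho+ arrays (vertical axis) for each array of 143BTK- (left) and A549 (right). Black is rho+ and red rho0, with circles, triangles and squares for A, B and C; the medians of all probe sets stay near 0, and 143BTK- rho+ C is the lowest array for the large subunit of that line.

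In 143BTK- none of 60 members passed in limma, as for all kept probe sets (0%), and none had an unadjusted p under 0.05, where 8.54% of all probe sets did. For 47 of the 60 the 95% interval excluded a doubling and a halving. With the power law global error model, the kind of test the study used but here fitted on these arrays and not on an outside data set, 5 members were called at its own per-gene threshold of 0.05 (21.6% of all probe sets): MRPL57 and MRPS30 higher, and MRPL19, MRPL40 and MRPL49 lower. That model called 20 members in A549, 5 higher and 15 lower, where it called 37% of all probe sets.

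The lowest 143BTK- value was that of MRPL49, a mitochondria-specific large-subunit protein, with 666.0, 436.8 and 350.3 in rho+ and 323.0, 198.6 and 365.7 in rho0 (−0.71, SE 0.32, limma unadjusted p = 0.0522, adjusted p = 0.592). The groups met at rho+ C and rho0 C. MRPL19 (−0.61), MRPL40 (−0.54), MRPL17 (−0.45) and MRPS16 (−0.44) followed, of which only MRPS16 had separate groups. The highest was MRPS30 (222275_at), with 56.5, 42.0 and 63.6 in rho+ and 68.8, 95.7 and 79.6 in rho0 (0.60, SE 0.28, adjusted p = 0.611). Its brighter probe set, 218398_at, gave 0.18 and its groups overlapped. MRPL57 (221995_s_at) at 0.58, MRPS12 (204330_s_at) at 0.53, MRPS33 at 0.36, MRPL46 at 0.29, MRPL44 at 0.23, MRPS27 at 0.22 and MRPL34 at 0.20 did not pass. At the lower end of the small subunit stood MRPS14 (203800_s_at) at −0.37 and MRPS28 and MRPS18A (221693_s_at), both at −0.36. Probe sets disagreed in sign for MRPL9 (−0.15 and 0.04), MRPS14 (its other probe set 0.02) and MRPS12 (0.53, 0.06, 0.04 and −0.05).

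The 143BTK- medians were −0.03 for the large and −0.04 for the small subunit, and 35 of 60 members were below 0 (50.2% of all). Only 1 member had every rho0 array above every rho+ array, MRPS30 (222275_at), and 3 had it below, MRPS16, MRPS18A (221693_s_at) and MRPS18B (208907_s_at), where 7.46% of all probe sets lay above, 7.53% below and 15% in either way without overlap. Without rho+ C the small-subunit median was −0.18 and 45 members were below 0, and without rho+ B 26 were. The median of all members ran from −0.14 (without rho0 A) to 0.03 (without rho+ B). No member was called in 143BTK- with any array left out.

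Between the lines the signs were mixed. Of the 59 members kept in both, 23 were below 0 in both (39.0%, against 26.3% of all probe sets), 9 above 0 in both (15.3%, against 26.6%) and 27 of opposite sign (45.8%, against 47.1%). Pearson's r of the changes across these probe sets was −0.10 (Spearman's rho −0.01), a description over probe sets that share arrays. MRPS12 (204330_s_at) had the widest contrast in sign, at −1.05 in A549 and 0.53 in 143BTK-, but with a large error (difference −1.58, SE 1.05, limma adjusted p = 0.472). MRPS16 stood at 0.69 in A549 and −0.44 in 143BTK- (difference 1.13, SE 0.43, limma adjusted p = 0.190). MRPL57 (221995_s_at) was the reverse, at −0.61 and 0.58 (difference −1.19, SE 0.41, adjusted p = 0.142).

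**Figure D4:**
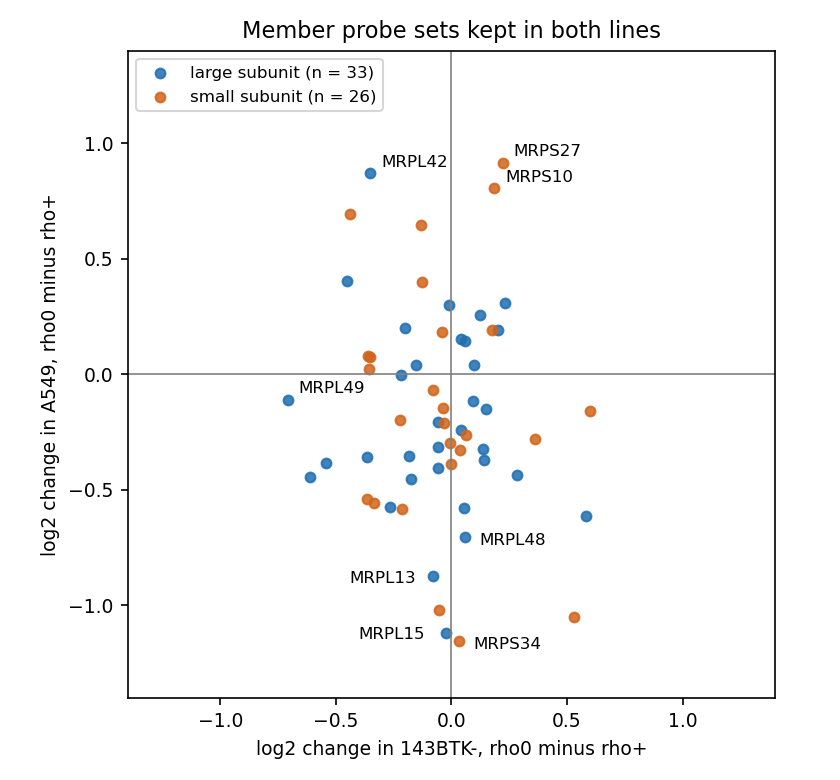
Log2 change, rho0 minus rho+, of the 59 member probe sets kept in both lines, in 143BTK- (horizontal) and A549 (vertical), with the large subunit in blue and the small in orange. The called members lie far from 0 on the A549 axis and near it on the 143BTK- axis, except MRPL42 at −0.35.

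For the mean change of both lines no member passed in limma (3.7% of all probe sets were called), with 2 higher and 10 lower at an unadjusted p under 0.05 (10.6% and 10.1% of all). The mean change was below 0 for 42 of 59 members, where 50.4% of all probe sets were below 0. Leaving out 143BTK- rho+ C added MRPL15, leaving out A549 rho+ C added MRPS27, and leaving out both gave these 2.

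Sequences upstream of the genes were examined for what the members share beyond the symbol. RefSeq promoter windows (GRCh38.p14, 250 bases before to 50 after the start site) were found for 45 of the 51 member genes, and MRPL2, MRPL13, MRPL15, MRPL23, MRPL35 and MRPS28 had no entry. Motifs of factors known to act on nuclear genes for mitochondrial proteins were searched on both strands. The ETS core CCGGAAG, bound by GABPA (NRF2), was found in 18 of 45 windows, where 14.2% of 15842 protein-coding promoters had it. The YY1 core AAGATGGC was found in 12 of 45, where 3.91% of all had it. The NRF1 core (GCGCA and GCGC with any base between) was found in 3 of 45, near the 8.57% of all promoters. Both subunits held the ETS core (9 of 26 large and 9 of 19 small) and the YY1 core (5 of 26 and 7 of 19). MRPS34 and MRPS22 each held 3 ETS cores in the window, and MRPS22 was not called (−0.21 in A549 and −0.03 in 143BTK-).

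MRPS34 is shown because it carried the only small-subunit call and 3 ETS cores, read on the opposite strand, in the last 100 bases before its start site (chr16:1773135-1773234, minus strand, motif in capitals).
MRPS34: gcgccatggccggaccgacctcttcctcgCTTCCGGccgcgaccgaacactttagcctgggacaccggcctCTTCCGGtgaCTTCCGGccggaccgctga
The YY1 core lay on the gene's strand and after the start site in 10 of 13 matches among the members, and in 53.3% of 647 matches among all promoters. Its letters hold ATGG, which is also found at start codons followed by G. It is shown, in capitals, in 30 bases for MRPL42, the member that rose, for MRPS27 and MRPS10, the highest of the small subunit in A549, and for MRPL20, which leaned the other way (chr12:93467511-93467540, plus strand, and chr5:72320206-72320235, chr6:42217834-42217863 and chr1:1407260-1407289, minus strand).
MRPL42: aggattgaaacAAGATGGCgggttcgtggt
MRPS27: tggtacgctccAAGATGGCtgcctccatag
MRPS10: tcgggaccggcAAGATGGCggcgcggacag
MRPL20: ccgacccgggcAAGATGGCagcggcgctgc
The changes of members with and without a match were not tested against each other. In A549 the median was −0.27 with the ETS core (22 probe sets, 15 below 0) and −0.16 without (31, 20 below 0). With the YY1 core it was −0.09 (18, 11 below 0) and without −0.24 (35, 24 below 0). In 143BTK- all 4 medians lay between −0.058 and 0.00011. A match describes letters in the window and is not evidence of binding.

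MRPL46 and MRPS11, of different subunits, start in opposite directions from overlapping windows on chromosome 15. In A549 the changes were −0.44 (SE 0.20, rho0 arrays all below) for MRPL46 and −0.15 (SE 0.23, overlapping) for MRPS11, and in 143BTK- 0.29 (SE 0.24) and −0.04 (SE 0.30).

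Factors that build the ribosome were read beside its proteins. Of 20 kept probe sets for ribosome assembly and rRNA modification, 3 fell and 1 rose in A549 (10.6% of all called), with a median of −0.39 and 16 below 0. MRM2, a methyltransferase of the large-subunit rRNA, went from 306.2 ± 33.4 to 129.7 ± 23.0 (mean signal ± SD, n = 3, log2 change −1.25, limma adjusted p = 0.00612), and MTERF3, which acts on mtDNA transcription and ribosome assembly, from 96.5 ± 9.42 to 37.9 ± 7.25 (−1.36, adjusted p = 0.0101). RBFA, a maturation factor of the small subunit, rose (1.16, adjusted p = 0.0465). In 143BTK- none of the 20 was called and the median was −0.19. For the mean change of both lines, MTERF3 (−1.13, adjusted p = 0.0147) and both probe sets of C1QBP (−0.71 and −0.69, adjusted p = 0.0136 and 0.0178) fell. C1QBP is a matrix protein needed for mitochondrial translation, and its brighter probe set gave 1421 ± 46.0 in 143BTK- rho+ against 687.2 ± 155 in rho0. In A549 it gave 952.1 ± 110 against 777.1 ± 159.

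Among 8 kept probe sets of translation factors, TUFM, the elongation factor that brings aminoacyl-tRNA to the ribosome, fell in A549 (−0.65, limma adjusted p = 0.0384). Among 17 of aminoacyl-tRNA synthetases IARS2 (−0.85) and HARS2 (−0.65) fell and NARS2 (1.06) rose. The called shares of these lists were 12.5% and 17.6%, against 10.6% of all. Of 29 kept probe sets for mtDNA transcription and RNA processing, 4 fell and 1 rose in A549 (17.2%, against 10.6% of all). FASTKD1 (−1.57, limma adjusted p = 0.00483) and the exonuclease REXO2 (1.32, adjusted p = 0.00869) were among them. Both passed also for the mean change (−1.16 and 0.87). Ribosome proteins with other symbols (DAP3, PTCD3, GADD45GIP1 and OXA1L, a membrane insertase that docks on the ribosome) gave 0 of 4 calls in either line (1 with an unadjusted p under 0.05 in each), and nuclear activators of mitochondrial biogenesis 0 of 16 in A549 and 0 of 20 in 143BTK- (limma, 1 with an unadjusted p under 0.05 in each).

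Proteins of the cytosolic ribosome, 85 kept probe sets in A549, had 7 that rose and none that fell there in limma (8.24%, against 10.6% of all). Of all probe sets, 5.53% were called higher and 5.07% lower. At an unadjusted p under 0.05, 20 of the 85 were higher and 0 lower (13.9% and 13.2% of all). Their median was 0.12 and 20 lay below 0, against 38 of 59 for the mitochondrial ribosome. RPL22 (1.13, adjusted p = 0.0125) and RPL35A (1.05, adjusted p = 0.0120) had the highest changes among the 7 called. Nuclear-encoded subunits of the respiratory chain gave 5 that rose and 9 that fell of 89 in A549 (15.7%, against 10.6% of all), with a median of −0.06. The difference between these lists was not tested. All 4 kept epithelial marker probe sets fell in A549 (−6.96 to −1.13 on the log2 scale), with a summed signal of 3709 to 6972 in rho0 and 10761 to 13194 in rho+ over all 6 on the array, and no marker was at 0. Their part in the member changes was not tested.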

How the data were processed

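The authors made labelled cRNA from total RNA (12 µg) of 4 groups of cells, hybridised it to Affymetrix arrays and deposited MAS5 signal intensity values, quantile-normalized in each line, and these were used as they are. The study calls the arrays of a group independent biological replicates, and its methods describe them as independent RNA extractions. It describes no separate derivations of rho0 cells within a line, only treated cells that were pooled. The p-values therefore do not cover the spread between derivations. With 3 arrays a group the number of arrays limits the precision (4 residual degrees of freedom in a line). Log2 signals were fitted with limma 3.58.1 in R 4.3.3 (lmFit, eBayes with an intensity trend, no offset), per line and over 12 arrays. The 60% of probe sets kept replaced detection calls, and the lowest mean signal kept was 17.9 in A549 and 15.0 in 143BTK-. The members, lists and tests were chosen with earlier results of these data known.

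Named members were those called, the 4 highest and 4 lowest of each subunit and line, genes whose probe sets differ in sign, and MRPL20. Members described beyond that rule (MRPL23, MRPS2, MRPS22, MRPS28, MRPL46, MRPS11, MRPL41 and MRPS18C) were chosen after their values were seen. From other lists, only some of the called genes are named, at most 3 in a direction. None is named for the respiratory chain. The list of cytosolic ribosomal proteins was drawn from symbols after the data were seen. Genes of the Y chromosome were left out. Of the probe sets, 19071 had 1 gene symbol, 1043 several and 2169 none, and all 64 member probe sets matched a RefSeq gene. Alternatives were quantile normalization over 12 arrays, median centring, 16 or 64 added before log2, no filter, a mean signal of at least 100, no trend, a replicate block, chromosome centring, 1 probe set a gene, a power law global error model rewritten here and fitted on these arrays, and arrays left out. The fits were also tested on simulated data with independent normal noise, an SD that followed intensity and no array effects. Recovery in the real arrays may therefore be lower. The A549 fit recovered 8% of 50 probe sets changed 1.5-fold, 44% of those changed 2-fold and 84% of those changed 4-fold. The 143BTK- fit recovered 10%, 42% and 96%. Plots were made in Python 3.11.15 (matplotlib 3.10.9).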

Additional observations from a re-analysis of the deposited data

How the results depend on the processing

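MRPL15 in A549 was called under every limma alternative run. The count of called A549 members was 2 without the intensity trend (MRPL15 and MRPL42), 3 with no filter (MRPL13 was lost), 5 with a mean signal of at least 100 (MRPL48 was added) and 1 to 7 with an array left out. With the power law global error model it was 20, and 5 in 143BTK-. For the mean change it was 0 to 1 with an array left out and 2 without both rho+ C arrays, and for the line difference 0 to 1 (MRPS16, without A549 rho+ C). The A549 large-subunit median ran from −0.33 to −0.18, the 143BTK- large-subunit median from −0.13 to 0.036 and the 143BTK- small-subunit median from −0.18 to 0.066 with an array left out.

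Same-letter deviations correlated at 0.11, 0.05 and 0.09 in A549, where different letters gave −0.11 to 0.02. In 143BTK- they correlated at 0.39, −0.11 and −0.02, where different letters gave −0.50 to 0.41. These values do not settle whether the letters A, B and C pair the arrays. With the replicate block, 4 A549 members were called, again MRPL13, MRPL15, MRPL42 and MRPS34, and 0 in 143BTK-, for the mean change and for the line difference, and the block changed no other call of a member.

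Among the members named by rule, changes near 0 turned sign. With chromosome centring these were MRPS18B (208907_s_at, A549, −0.061) and, in 143BTK-, MRPL9 (209609_s_at, 0.016) and MRPS12 (204331_s_at, −0.12, and 210008_s_at, −0.10). With an array left out, A549 changes ran from −0.36 to 0.089 for MRPS30 222275_at, −0.042 to 0.44 for MRPS30 218398_at and −0.23 to 0.35 for MRPS18B 208907_s_at. In 143BTK- they ran from −0.18 to 0.34 for MRPL9 211594_s_at, −0.41 to 0.0051 for MRPL9 209609_s_at, −0.11 to 0.93 for MRPS12 204330_s_at, −0.27 to 0.29 for 204331_s_at, −0.33 to 0.29 for 210008_s_at, −0.32 to 0.12 for 213840_s_at, −0.36 to 0.44 for MRPS14 203801_at and −0.10 to 0.61 for MRPL44.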
